A study of Arabidopsis thaliana with 23 samples.

Results

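Auxin-related genes were followed across root ground tissue and stem cells of Arabidopsis: the auxin-conjugating enzymes GH3.3 (AT2G23170) and WES1 (AT4G27260, also called GH3.5), and the transcription factors LBD16 (AT2G42430) and LBD29 (AT3G58190). The 4 genes were chosen by name, with earlier results of these data known. Their values are those of the 4 probe sets that the array annotation assigns to each of them alone, among 22810 probe sets in the table. All 4 were among the 15983 probe sets with enough signal to be tested.

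Auxin is held at a working level partly by GH3 enzymes, which join indole-3-acetic acid to amino acids and so take it out of signalling. GH3 genes are themselves switched on by auxin and are part of a negative feedback. LBD16 and LBD29 act downstream of the auxin response factors ARF7 and ARF19 in the pericycle, where they promote the divisions that start a lateral root.

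Arabidopsis seedlings of the Columbia ecotype were grown for 5 days, and RNA from approximately 1000 roots per replicate was amplified in 2 cycles and hybridised to ATH1 arrays, 23 in all. The CEI group (3 arrays) held cortex/endodermis initial cells, the stem cells of the ground tissue, which were taken from a line marked by GFP under the CYCD6 promoter and grown on standard medium without Dex. The SHR line and the SCR line carried inducible SHORT-ROOT or SCARECROW, transcription factors that pattern the ground tissue, were collected through the J0571 enhancer-trap marker, and were sampled 0, 1, 3, 6 and 12 h after the move to 1 micromolar Dex, with 2 arrays per time and 10 per line. The labels disagree on the tissue: the source names speak of sorted cells, whereas the treatment text describes roots cut and put into RNA buffer. The CEI group differed from the lines in genotype, marker and medium together, so these cannot be told apart. No time course without Dex was analysed here, so an effect of Dex and one of the transfer itself cannot be told apart either. In such bulk samples fewer expressing cells and less RNA per cell cannot be distinguished.

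Values are MAS5 signals on a linear scale, whose median per array ran from 62.9 to 79.9. Differences are in log2(signal + 10) with their standard error (SE), and adjusted p-values come from one limma fit over all tested probe sets. A fold on this scale understates the change of a weakly hybridised gene. Of 15 lists of auxin genes, lateral root genes and cell type markers with 180 loci, 24 loci were named by the annotation and 20 were tested. The named markers were few: 1 of 1 for cortex, 1 of 11 for endodermis, 1 of 6 for epidermis, 2 of 5 for the stem cell niche and 0 for stele and pericycle, root cap and the CEI marker itself, so the labelled cell types could be checked only in small part. The stem cell gene BBM read 384 to 589 in CEI cells, against 20.4 to 105 on SHR arrays and 4.78 to 144 on SCR arrays. AGL42, the other niche gene, read 44.3 to 68.5 in CEI cells, above all SCR arrays but overlapping SHR arrays (1.88 to 55.4). AGL42 was called higher than the mean of each line. Against both lines at 0 and 12 h it was not (adjusted p = 0.0680 and 0.343, limma). The epidermis gene EXPA7 read 84.5 to 206 in CEI cells, 20.3 to 248 on SHR arrays and 11.6 to 141 on SCR arrays. EXPA7 was not called, at 1.55 against both lines at 12 h. The array control of a bacterial dap transcript (3′ probe set) read 2.24 to 5.13 in the CEI group, 112 to 1218 on SHR arrays and 0.665 to 8.40 on SCR arrays, so this control moved with line. The array's ubiquitin control (middle probe set) read 457 to 977 in the CEI group and 634 to 1556 on SHR arrays, against 2140 to 4482 on SCR arrays, with no overlap between the lines. The 3′ and 5′ ubiquitin probe sets did overlap between the lines, as at 704 to 2015 on SHR arrays and 1879 to 3532 on SCR arrays for a 5′ set. Neither control's part in the differences between the groups was tested. No value of this dap probe set overlapped between the SHR arrays and the other arrays. Differences of the SHR line from the other groups therefore cannot be told apart from differences in how the arrays were prepared.

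GH3.3 ran from 29.3 to 8538 over the 23 arrays, and it was lowest in CEI cells. In CEI cells its signal was 74.5, 37.4 and 29.3. On the SHR arrays GH3.3 read 1607 and 282 (0 h), 3859 and 2288 (1 h), 2329 and 574 (3 h), 1276 and 625 (6 h), and 525 and 463 (12 h). On the SCR arrays it read 2895 and 3233 (0 h), 3100.05 and 2339 (1 h), 5663 and 2850.18 (3 h), 5461 and 2775 (6 h), and 4169 and 8538 (12 h). Every CEI array lay below every array of both lines, and the SHR arrays lay below the SCR arrays of the same time except at 1 h, when the lines overlapped. By group mean the order ran from the SCR line at 12, 3 and 6 h, through the SHR line at 1 h and the SCR line at 0 and 1 h, to the SHR line at 3, 6, 0 and 12 h, and last CEI. Of the 10 neighbouring pairs in this order 8 overlapped, and the breaks lay below the SCR line at 1 h and above the CEI group.

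WES1, which conjugates indole-3-acetic acid and has also been tied to salicylic acid metabolism, ran from 29.4 to 367 over the 23 arrays. Its signal was 97.7, 99.0 and 29.4 in CEI cells. The SHR arrays of WES1 read 144 and 95.1 (0 h), 367 and 182 (1 h), 182 and 152 (3 h), 123 and 86.7 (6 h), and 86.5 and 114 (12 h). Its SCR arrays read 105 and 241 (0 h), 163 and 118 (1 h), 208 and 95.6 (3 h), 302 and 129 (6 h), and 101 and 319.6 (12 h). The single low CEI array lay below all others, and all 10 neighbouring pairs in the order of group means overlapped. The SHR line at 1 h had the highest mean and the CEI group the lowest.

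LBD16, a lateral organ boundaries domain protein of lateral root founder cells, ran from 29.8 to 659 and was higher in the SCR line at most times. In CEI cells its signal was 117, 54.2 and 29.8. LBD16 on the SHR arrays read 129 and 53.7 (0 h), 134 and 124 (1 h), 125 and 87.2 (3 h), 61.1 and 48.5 (6 h), and 48.6 and 40.7 (12 h). LBD16 on the SCR arrays read 166 and 229 (0 h), 214 and 129.8 (1 h), 223 and 257 (3 h), 358 and 159 (6 h), and 387 and 659 (12 h). All SCR groups had higher means than all other groups, and the SCR line at 12 h stood clear of every other group. The CEI mean lay between the SHR line at 0 h and at 6 h, and 9 of 10 neighbouring pairs overlapped.

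LBD29, a close relative that acts with LBD16 in lateral root initiation, was near the lower limit of measurement. In CEI cells its signal was 43.6, 10.9 and 3.80. LBD29 read 34.2 and 2.09 (0 h), 51.7 and 20.7 (1 h), 32.5 and 8.78 (3 h), 46.7 and 9.67 (6 h), and 1.96 and 4.60 (12 h) on the SHR arrays. On the SCR arrays LBD29 read 32.3 and 25.2 (0 h), 25.2 and 4.91 (1 h), 28.9 and 31.9 (3 h), 38.6 and 1.39 (6 h), and 30.8 and 11.3 (12 h). The lines overlapped at all times but 12 h. LBD29 exceeded the 40th percentile of its own array, which lay at 31.0 to 43.6, on 4 of 23 arrays. GH3.3 did so on 21, WES1 on 22 and LBD16 on 21 of 23 arrays, and the exceptions for GH3.3 were 2 of the 3 CEI arrays. The single-time differences of LBD29 are therefore given only as counts.

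**Figure D1:**
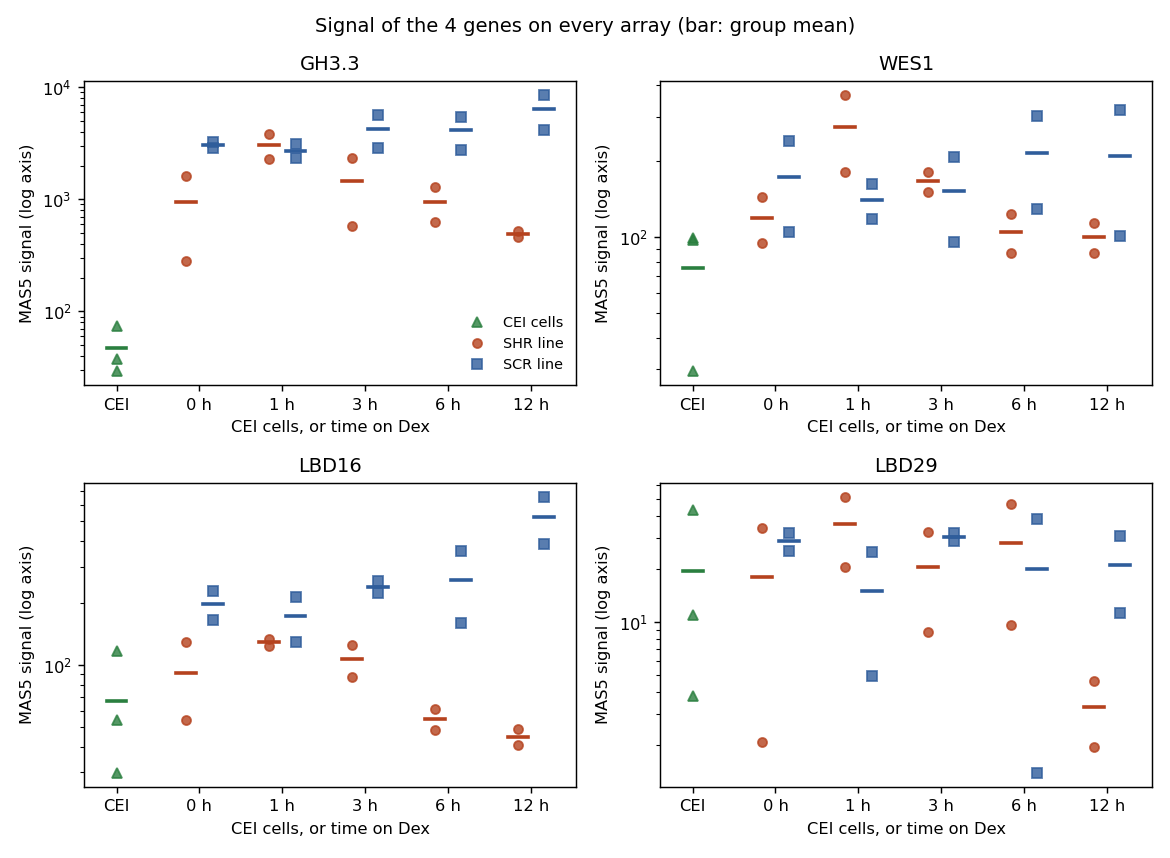
MAS5 signal on a log axis for GH3.3, WES1, LBD16 and LBD29 in CEI cells (3 arrays) and in the SHR and SCR lines at 0, 1, 3, 6 and 12 h on Dex (2 arrays each); points are arrays and bars are group means. The 3 CEI arrays of GH3.3, at 29.3 to 74.5, lie below all arrays of the lines, and LBD16 at 12 h reads 40.7 and 48.6 on SHR arrays, against 387 and 659 on SCR arrays.

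CEI cells were set against the ground tissue lines. GH3.3 was far lower in CEI cells in every one of 4 comparisons, which share the CEI arrays. Against both lines at 0 h, GH3.3 averaged 47.1 ± 24.1 in CEI cells (SD, n = 3), against signals of 282 to 3233 on the 4 arrays of the lines, and the difference was −4.75 ± 0.54 (adjusted p = 3.71e-05, limma). It kept its call on leaving out each array in turn, with differences of −5.37 to −4.13, and stood at −4.00 with a pseudocount of 50. Because 2 of the 3 CEI arrays read below the 40th percentile, the size of this difference rests on low signals. The cortex marker AT1G62500 was also lower in CEI cells at this time, at 175 to 308, against 210 and 1230 on SHR arrays and 690 and 1176 on SCR arrays (−1.53, adjusted p = 0.0399, limma), and its part in the GH3.3 difference was not tested. Against both lines at 12 h the marker differed by 0.16 (adjusted p = 0.852). Against both lines at 0 h 1 of the 4 genes was called lower, where 10.7% of all tested probe sets were called lower and 20.3% in either direction.

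GH3.3 was also lower in CEI cells in the other comparisons. The difference was −5.00 ± 0.54 against both lines at 12 h, −4.24 ± 0.47 against the mean of the SHR line and −6.13 ± 0.47 against the mean of the SCR line, and the highest adjusted p of the 4 comparisons was 3.71e-05. With a pseudocount of 50 these differences were −4.25, −3.49 and −5.33, all called. All 3 CEI arrays lying below all 20 arrays of the lines was seen for 1 of the 4 genes and for 6.13% of the tested probe sets.

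LBD16 was lower in CEI cells than in the SCR line, but was not called different from the SHR line. It averaged 66.9 ± 44.9 in CEI cells (SD, n = 3), against 278 ± 157 over the 10 SCR arrays, a difference of −1.91 ± 0.32 (adjusted p = 2.12e-04, limma). All 3 CEI arrays lay below all 10 SCR arrays for LBD16 and for GH3.3, as for 13.9% of the tested probe sets. Against the SHR line, where LBD16 averaged 85.2 ± 39.0, the difference was −0.36 ± 0.32 (adjusted p = 0.425, limma), and 20 of 30 pairs of arrays had the CEI array lower. The difference from the mean of both lines at 12 h was −1.29 ± 0.37 (adjusted p = 0.0255, limma), while the 0 h difference was −1.02 ± 0.37 (adjusted p = 0.0627). At 12 h the CEI mean of 66.9 lay above the SHR mean of 44.6 and below the SCR mean of 523. LBD16 was therefore lower at 12 h than the SCR line only, not than each line. The 12 h call ended without CEI replicate 2 or 3, either SHR 12 h array or SCR 12 h replicate 2.

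WES1 passed the threshold against the SCR line alone, at −1.16 ± 0.39 (adjusted p = 0.0228), and this rested on the CEI array that read 29.4: without CEI replicate 3 the difference was −0.67 (adjusted p = 0.215). Its other CEI differences were −0.95 against the SHR line, −0.93 against both lines at 0 h and −0.90 against both at 12 h, with a lowest adjusted p of 0.0760. LBD29 differed by −0.27 to 0.34 in the 4 comparisons, and the lowest adjusted p was 0.701. CEI replicate 3 was the lowest of the 3 CEI arrays for 4 of 4 genes. The share of all tested probe sets lowest on that array was not counted.

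Counted over the 4 genes, 2 were called lower against both lines at 12 h (9.7% of tested probe sets called lower, 17.1% in either direction), 1 against the SHR line (14.5% lower, 28.8% in either direction) and 3 against the SCR line (19.3% lower, 45.7% in either direction). No member was called higher in CEI cells in these 4 comparisons.

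**Figure D2:**
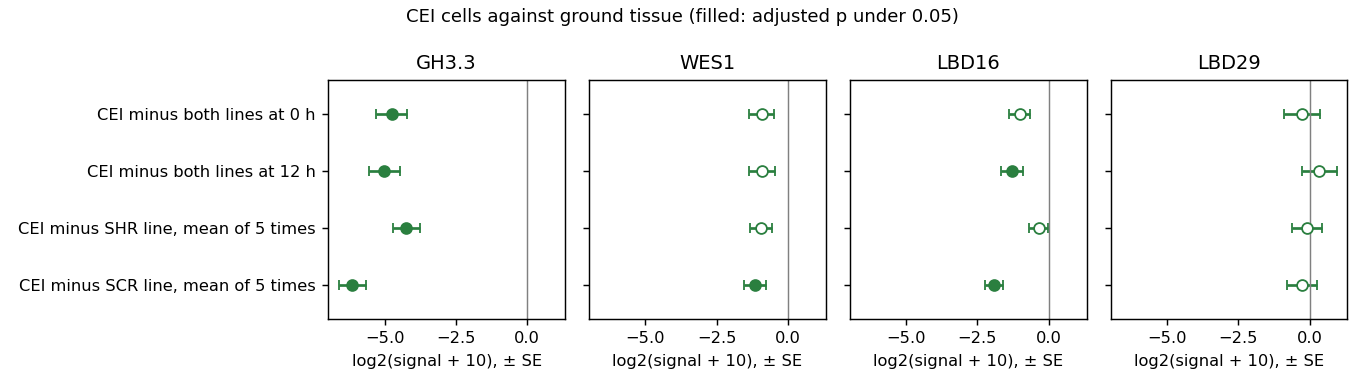
Difference of CEI cells from both lines at 0 h, both lines at 12 h, the SHR line and the SCR line for each gene, in log2(signal + 10) with SE bars; filled points have an adjusted p under 0.05. GH3.3 lies between −4.24 and −6.13 in all 4 comparisons, LBD16 between −0.36 and −1.91, and LBD29 around 0.

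Whether the lines differed was asked first over the mean of the 5 times. GH3.3 was lower in the SHR line, with a lowest, median and highest signal of 282, 951 and 3859, against 2339, 3167 and 8538 in the SCR line. The difference was −1.90 ± 0.32 (adjusted p = 5.88e-04, limma), a 3.72-fold lower value, and the SHR array was the lower in 94 of 100 pairs of arrays. LBD16 was also lower in the SHR line, with a lowest, median and highest signal of 40.7, 74.1 and 134, against 130, 226 and 659 in the SCR line. Its difference was −1.56 ± 0.22 (adjusted p = 1.35e-04, limma), a 2.94-fold lower value, with the SHR array lower in 99 of 100 pairs.

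Both of these genes had their SHR arrays below their SCR arrays at 4 of 5 times, and 6.15% of the tested probe sets did so at 4 or more. The 2 calls among 4 genes stand beside a background of 10.3% of probe sets called lower in the SHR line and 22.6% called in either direction. This test counts the 10 arrays of a line as independent. When the 5 times were first averaged for each replicate number, GH3.3 stood at 10.63 and 9.35 in the SHR line, against 12.00 and 11.77 in the SCR line (log2), and its call ended (adjusted p = 0.108, limma). LBD16 stood at 6.68 and 6.24 in the SHR line, against 8.06 and 7.98 in the SCR line, and kept its call (adjusted p = 0.0400).

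The other pair did not separate the lines. WES1 had a median of 134 in the SHR line, against 146 in the SCR line, a difference of −0.21 with a 95% interval of −0.77 to 0.35 (adjusted p = 0.600, limma). LBD29 differed by −0.20 ± 0.36 (adjusted p = 0.727). The SHR array was the lower in 61 of 100 pairs for WES1 and in 52 of 100 for LBD29.

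By time, the line difference of GH3.3 was −2.16 (0 h), 0.14 (1 h), −1.79 (3 h), −2.11 (6 h) and −3.57 ± 0.71 (12 h). The same difference of LBD16 was −1.12, −0.35, −1.12, −1.95 and −3.24 ± 0.49 at these times. At 12 h both passed (adjusted p = 0.00496 for GH3.3 and 7.33e-04 for LBD16, limma). The size for LBD16 rests on low SHR signals, 1 of the 2 arrays being below its 40th percentile, and with a pseudocount of 50 it was −2.56, still called. At 12 h 13.2% of the tested probe sets were called in either direction and 7.38% were called lower, and 3 of the 4 genes (LBD29 as well) had both SHR arrays below both SCR arrays, as did 25.5% of probe sets. The GH3.3 call at 12 h ended without SCR replicate 2 of that time (−3.05, adjusted p = 0.0765).

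At 0 to 6 h 0 of 16 line differences of the 4 genes passed in limma, and 6 had an unadjusted p below 0.05, all of GH3.3 or LBD16. Few probe sets of any kind passed at these times, with 0.00626% (0 h), 0.138% (1 h), 0.144% (3 h) and 0.325% (6 h) called. An unadjusted p below 0.05 was seen for 987 (0 h), 1581 (1 h), 1464 (3 h) and 2984 (6 h) of the 15983 tested probe sets. On leaving out 1 array the GH3.3 difference ran from −3.40 to −0.92 at 0 h and from −2.79 to −0.78 at 3 h. The LBD16 difference at 6 h was nearest, with an adjusted p of 0.0861. Without SCR 6 h replicate 2 the 6 h differences passed for GH3.3 (−2.60, adjusted p = 0.0382) and LBD16 (−2.51, adjusted p = 0.00466). WES1 ran from −0.87 to 0.85 over the times, and its lowest adjusted p was 0.351 (limma).

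**Figure D3:**
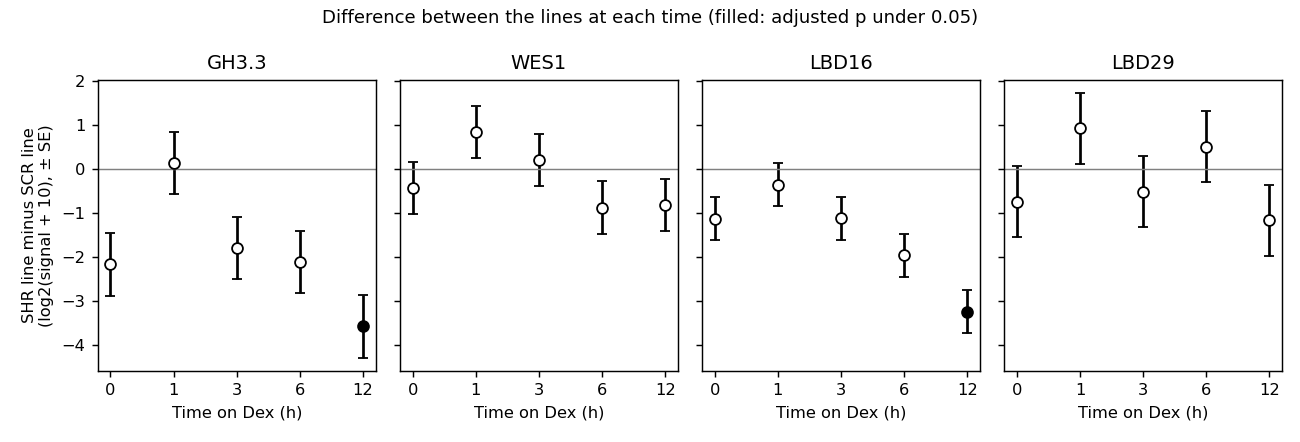
SHR line minus SCR line at 0, 1, 3, 6 and 12 h on Dex for each gene, in log2(signal + 10) with SE bars (2 arrays per line and time); filled points have an adjusted p under 0.05. GH3.3 and LBD16 are near 0 at 1 h (0.14 and −0.35) and lowest at 12 h (−3.57 and −3.24).

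Within a line, each time was set against 0 h to follow the genes after the transfer to Dex. Without a replicate block, none of the 32 contrasts of the 4 genes passed in limma, and 2 had an unadjusted p below 0.05. These were GH3.3 in the SHR line at 1 h and LBD16 in the SCR line at 12 h. GH3.3 in the SHR line differed from 0 h by 2.12 ± 0.71 at 1 h (adjusted p = 0.263), and by 0.77 (3 h), 0.40 (6 h) and −0.45 (12 h) later. The 0 h arrays themselves read 1607 and 282, and on leaving out 1 array the 1 h difference ran from 0.88 to 3.35. With a fixed replicate block the 1 h difference passed (adjusted p = 0.0444, limma). In the SCR line GH3.3 differed from 0 h by −0.18, 0.39, 0.35 and 0.96 at the same times. The cortex marker AT1G62500 differed there from 0 h by −1.53, −2.58, −4.30 and −2.35 (lowest adjusted p = 0.0503, limma), and on SHR arrays by −2.51 to −1.02.

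WES1 in the SHR line differed from 0 h by 1.08 ± 0.59 at 1 h (adjusted p = 0.355, limma), 0.47 (3 h), −0.16 (6 h) and −0.22 (12 h), and on SCR arrays by −0.19, −0.16, 0.29 and 0.17. LBD16 in the SHR line differed from 0 h by 0.56, 0.28, −0.55 and −0.79 ± 0.49, with an adjusted p of 0.621 at 12 h. In the SCR line LBD16 differed by −0.21, 0.28, 0.28 and 1.33 ± 0.49, with an adjusted p of 0.588 at 12 h. Its 12 h arrays lay below both 0 h arrays in the SHR line, whereas those of the SCR line lay above both, a pattern seen in 6.14% of the tested probe sets.

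Without a replicate block, the share of tested probe sets called against 0 h in the SHR line was 0% at 1, 3 and 12 h and 0.0125% at 6 h. An unadjusted p below 0.05 was seen for 2549, 439 and 1406 at 1, 3 and 12 h and for 508 at 6 h. With a fixed replicate block 332 probe sets were called at 1 h. In the SCR line the share called without a block was 0% at 1, 3 and 6 h (1181, 290 and 840 unadjusted) and 0.00626% at 12 h (1236 unadjusted). An F-test over the whole course called 0.0188% of probe sets on SHR arrays (2756 unadjusted) and 0% on SCR arrays (547 unadjusted). The lowest adjusted p of this F-test among the 4 genes was 0.228, for GH3.3 in the SHR line. An F-test of whether the line difference changed over time called 0% of probe sets (1170 unadjusted), with adjusted p-values of 0.553 for LBD16, 0.629 for GH3.3, 0.730 for WES1 and 0.777 for LBD29. For LBD16 it passed without SCR 6 h replicate 2 (adjusted p = 0.0426).

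The values of the 4 genes were correlated to differing degrees. Across the 11 group means of log2 values Pearson's r was 0.84 for GH3.3 with WES1, 0.80 for GH3.3 with LBD16 and 0.66 for WES1 with LBD16, and LBD29 gave 0.42 with GH3.3, 0.48 with WES1 and 0.42 with LBD16. Across the 23 arrays after subtraction of the group means, r was 0.64, 0.76 and 0.72 for the first 3 pairs, and LBD29 gave 0.73 with GH3.3, 0.46 with WES1 and 0.77 with LBD16. The points share arrays, their scaling and the amplified RNA. In the SHR line replicate 1 was above replicate 2 at 5 of 5 times for GH3.3 and LBD16 and at 4 of 5 for WES1 and LBD29. How many of all tested probe sets had this order was not counted.

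**Figure D4:**
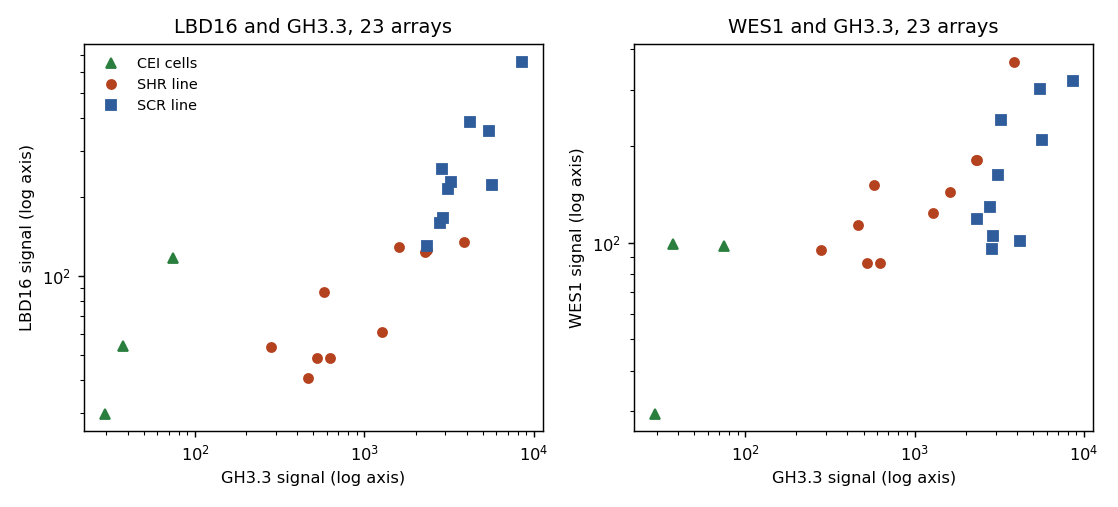
Signals of LBD16 (left) and WES1 (right) against GH3.3 on all 23 arrays, both axes log, with 1 point per array. LBD16 parts the SCR arrays (130 to 659) from nearly all SHR arrays (40.7 to 134), while WES1 overlaps between the lines (86.5 to 367 on SHR arrays, 95.6 to 320 on SCR arrays).

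The genes with the pattern most like each of the 4 over the 11 group means were sought among 8849 other probe sets with 1 named gene. For GH3.3 they were AT5G61820 (r = 0.995), the dehydrin LTI30 (r = 0.988) and AT1G78020 (r = 0.987). For WES1 they were AT1G70100, AT4G28770 and AT2G27310 (r = 0.968, 0.944 and 0.940). For LBD16 they were AT5G61890 (r = 0.983), AT1G76230 (r = 0.981) and IAA30 (r = 0.978), an Aux/IAA repressor of auxin response. For LBD29, whose values were near background, the highest were AT2G42240, AT2G21510 and AT4G11190 (r = 0.787, 0.783 and 0.782).

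Among related genes, the GH3 family list had 13 loci, of which 7 were named and 6 tested, GH3.3 and WES1 included. Over the mean line difference 0 of the 6 were called higher and 1, GH3.3, lower in the SHR line, with a median of −0.10, against 0.08 over all tested probe sets, of which 10.3% were called lower. In CEI cells 2 of the 6 were called lower than both lines at 0 h (median −1.27, against 0.04 over all tested), 1 lower at 12 h, 2 lower than the SHR line and 3 (WES1 as well) lower than the SCR line, with 0 higher each time. The shares of all tested probe sets called lower were 10.7%, 9.7%, 14.5% and 19.3% in these comparisons. The second gene was GH3.17, another enzyme that conjugates indole-3-acetic acid, which read 67.0, 140 and 274 in CEI cells, from 192 to 908 on SHR arrays and from 221 to 866 on SCR arrays. GH3.17 differed in CEI cells by −1.71 ± 0.45 from both lines at 0 h (adjusted p = 0.0140, limma), while the 12 h difference was −1.02 (adjusted p = 0.125). Its mean difference between the lines was 0.24 (adjusted p = 0.546), unlike the called value of GH3.3, and that contrast between the genes was not tested. GH3.1, AT1G23160 and AT5G51470 passed in none of the CEI or mean line comparisons, with a lowest adjusted p of 0.174 for AT1G23160 against both lines at 0 h, and GH3.9 was below the limit for testing.

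Of the 34 LBD family loci only LBD16 and LBD29 were named. Of 24 Aux/IAA loci 3 were tested, and 2 were called lower in the SHR line over the mean of the 5 times (median −0.69, against 0.08 over all tested probe sets, of which 10.3% were called lower). IAA30 read 8.76, 36.2 and 48.1 as lowest, median and highest in the SHR line, against 49.8, 121 and 383 in the SCR line, a difference of −1.70 ± 0.18 (adjusted p = 1.03e-05, limma) with no overlap between the lines. At 12 h IAA30 read 8.76 and 21.9 in the SHR line, against 168 and 383 in the SCR line. IAA18, another repressor of the family, differed by −0.69 ± 0.15 (adjusted p = 0.00358). In CEI cells IAA30 differed by −1.17 ± 0.31 from both lines at 0 h (adjusted p = 0.0141), where it read 15.9 to 41.2. IAA18 differed there by 0.55 (adjusted p = 0.130), and the median of the 3 Aux/IAA genes was −0.13.

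Of 24 loci for auxin synthesis and other inactivation 2 were tested; UGT74D1, a glucosyltransferase for auxin, was called lower in CEI cells in 3 of the 4 comparisons, at −1.19 against the SHR line. The 2 tested lateral root genes, PUCHI and CR4 (ACR4), were called in none of the CEI or mean line comparisons. No auxin receptor, response factor or transporter on the lists was named by the annotation. The endodermal receptor kinase GSO1 was lower in the SHR line than in the SCR line (−0.85, adjusted p = 0.0140) and lower in CEI cells than in the SCR line (−1.18), in the same direction as LBD16, and its part in the LBD16 difference was not tested.

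**Figure D5:**
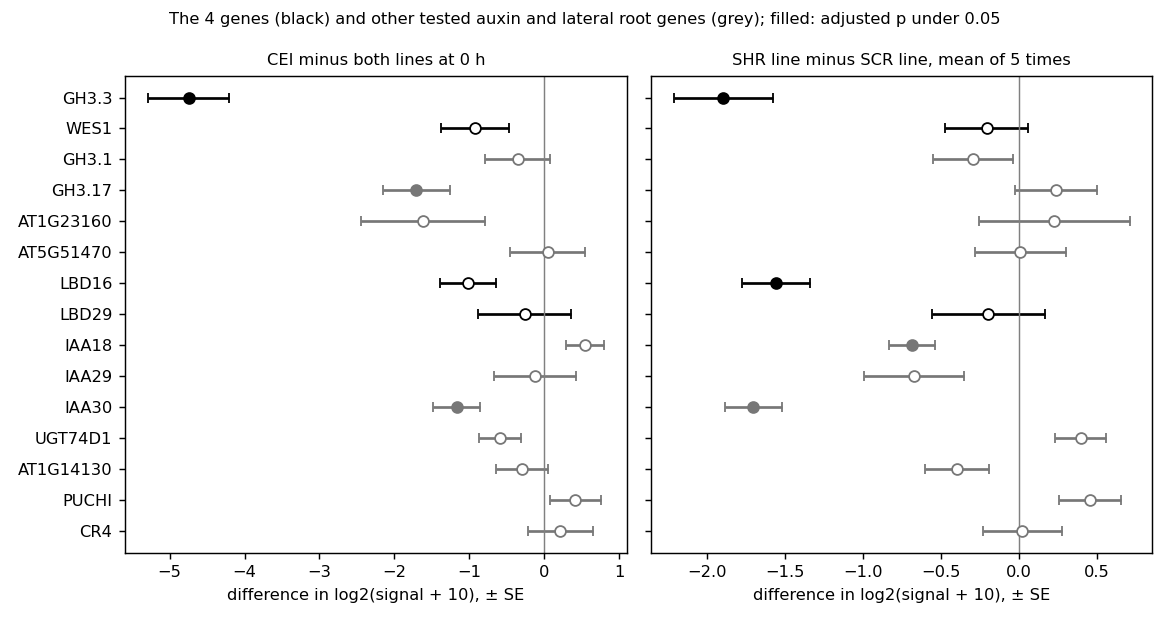
Differences in log2(signal + 10) with SE bars for the 4 genes (black) and other tested genes of auxin and lateral root lists (grey), CEI cells minus both lines at 0 h (left) and SHR line minus SCR line over 5 times (right); filled points have an adjusted p under 0.05. GH3.3 (−4.75 and −1.90) lies farthest to the left in both panels, with IAA30 (−1.70) and LBD16 (−1.56) next between the lines.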

How the data were processed

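The authors deposited signal intensities on a linear scale for 23 arrays, made with MAS5 per the submitters' processing notes; neither its version nor detection calls were found in the sources. The mean between the 2nd and 98th percentile was near equal on all arrays. Values were used as log2(signal + 10), where 10 is a pseudocount, without renormalizing. Of 22810 probe sets, 64 controls were set apart, and 15983 above the 40th percentile of their own array on at least 2 arrays were tested in limma 3.58.1 (R 4.3.3; lmFit, eBayes with trend) as 11 group means with 12 residual degrees of freedom. Benjamini-Hochberg adjustment ran over all 15983 at 0.05, two-sided. Scripts ran in Python 3.11.15.

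Groups follow the labels, which call the arrays biological replicates; the number of arrays limits the precision. Replicate numbers recur across times, and the titles number the replicates of each time course but name no shared batch or day. The main fit therefore used no block, and calls that change with a replicate block are given with the alternatives. The fit was tested on simulated data. Probe sets were named from the supplied platform annotation (1 gene for 13513, several for 503), and loci from RefSeq through gene IDs (13436 matched). Named genes were the members, all tested GH3 and LBD genes, called genes of the other lists (at most 4 per list), and for each member the 3 probe sets most alike by Pearson's r. The tested but uncalled PUCHI, CR4 and EXPA7 were named after their values were seen, and GSO1, BBM and AGL42 are marker genes. The members and lists were chosen with earlier results of these data known. Pseudocount, normalization, filter, trend, replicate block, single times and each array left out were varied, and 2 alternatives (scaling to a common 75th percentile, and leaving out 0 h) were chosen after seeing the data. No sequences of the members are shown.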

Additional observations from a re-analysis of the deposited data

Results flagged for a closer look

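At 12 h LBD16 differed from 0 h in opposite directions in the lines. It read 48.6 and 40.7 at 12 h, against 129 and 53.7 at 0 h, in the SHR line, and 387 and 659 at 12 h, against 166 and 229 at 0 h, in the SCR line, so no array overlapped between the times in either line. The difference between the changes was −2.12 ± 0.69 (log2, unadjusted p = 0.00695, limma adjusted p = 0.353), which did not pass over all tested probe sets. The same pattern of arrays was seen in 6.14% of the tested probe sets.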

How the results depend on the processing

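Over 73 values of the 4 genes, 1269 alternative values were computed, of which 1209 kept direction and side of the threshold, 8 lost and 10 gained a call, and 42 changed sign. None of the 42 had been called, and 41 came from leaving out 1 array. Arrays of 2 per group and signals near background limit LBD29 most.

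Replicate differences correlated by 0.05 to 0.51 (median 0.39) between times on SHR arrays and by −0.22 to 0.58 (median 0.24) on SCR arrays. The main fit took no account of any effect shared by a replicate number, because the titles name no shared batch or day. With a fixed replicate block, LBD16 in CEI cells against both lines at 0 h, unchanged at −1.02, passed (adjusted p = 0.0429), giving 2 called genes; the block also brought GH3.3 in the SHR line at 1 h (adjusted p = 0.0444), its SHR course by F-test (0.0319) and the 6 h line differences of GH3.3 and LBD16 (0.0328 and 0.0304) under the threshold. With replicate averages the GH3.3 line difference of −1.90 lost its call, leaving 1 gene. Without 12 h arrays LBD29 between the lines turned to 0.044.

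Leaving out 1 array, CEI differences ran as follows (log2). LBD16 ran from −1.73 to −0.89 against both lines at 12 h, from −1.46 to −0.62 at 0 h (passing in 2 cases) and from −0.80 to 0.036 against the SHR line. WES1 ran from −1.41 to −0.67 against the SCR line. LBD29 ran from −0.81 to 0.21 at 0 h, −0.22 to 0.76 at 12 h, −0.63 to 0.35 against the SHR line and −0.82 to 0.15 against the SCR line. The number of called genes ran from 1 to 2 at both 0 h and 12 h.

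Uncalled values between times and lines also turned sign. In the SHR line against 0 h, GH3.3 ran from −0.47 to 2.00 at 3 h, −0.84 to 1.63 at 6 h and −1.68 to 0.79 at 12 h; LBD16 from −0.0053 to 1.13 at 1 h, −0.28 to 0.85 at 3 h and −1.11 to 0.018 at 6 h; WES1 from −0.44 to 0.11 at 6 h and −0.49 to 0.055 at 12 h. In the SCR line GH3.3 ran from −0.39 to 0.019 at 1 h, −0.10 to 0.89 at 3 h and −0.14 to 0.83 at 6 h, and LBD16 from −0.55 to 0.13 at 1 h and −0.28 to 0.84 at 6 h. WES1 there ran from −0.75 to 0.38 at 1 h, −0.73 to 0.40 at 3 h, −0.29 to 0.88 at 6 h and −0.61 to 0.96 at 12 h. Between the lines GH3.3 ran from −0.23 to 0.52 at 1 h, WES1 from −0.98 to 0.15 at 0 h and −0.31 to 0.74 at 3 h, and LBD29 over all times from −0.41 to 0.013. The causes were not tested.

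The number of probe sets called moved by over 1.5 times in several cases. Between the lines over 5 times, 1108 with a random replicate block, 116 with replicate averages and 1207 without 12 h arrays were called, where the reported count was 3608. At 12 h the line difference called 3912 with the fixed replicate block and 298 to 683 without 1 of its arrays, where the reported count was 2117. At 0, 1, 3 and 6 h the fixed replicate block called 37, 182, 161 and 733, where the reported counts were 1, 22, 23 and 52. Dropping replicate 2 of the SCR line at 6 h gave 3633 at that time. Against 0 h the fixed replicate block called 332 in the SHR line at 1 h, where none was reported, and without 1 array the SCR line called 1960 at 6 h. Leaving out 1 array moved CEI counts this far only in some cases. In those cases they were 1766 to 2065, where 3241 was reported (0 h), and 1662 to 1801, where 2733 was reported (12 h). Against the SHR line the count was 2755 without CEI replicate 1, where 4603 was reported.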
